A study of Mus musculus with 8 samples.

Results

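The Iroquois homeobox genes of the mouse are Irx1 to Irx6. They were found on the arrays by gene name: 6 genes of 27729 gene names, measured by 9 probes of 41174. Irx1 had 2 probes, Irx2 had 3, and the other members had 1 each. Of the 6 genes, 5 entered the test because their brightest probe cleared the background on 4 or more arrays of the 8, and Irx6 was left out because its probe cleared it on none.

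The samples were cells of hearts from minK-GFP transgenic mouse embryos at stage E10.5. All embryos carried a bacterial artificial chromosome in which the regulatory region of minK (Kcne1), a potassium channel subunit gene, drives green fluorescent protein. The hearts were digested with pancreatin and collagenase and the cells were sorted by fluorescence. GFP-high, labelled as conduction system cells, had 4 samples and GFP-low, labelled as chamber myocardium, had 4, so the GFP-low cells carried the same transgene and both groups are defined by reporter brightness and not by dissection. Each sample gave 5 ng of RNA, which was amplified before it was hybridised to 1 array. The series describes them as biological replicates, and how many embryos went into each was not given in the sources used here.

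Iroquois proteins are transcription factors of the three-amino-acid-loop-extension (TALE) homeodomain class. The mouse genes lie in a cluster on chromosome 13, with Irx1, Irx2 and Irx4, and a cluster on chromosome 8, with Irx3, Irx5 and Irx6. In the developing heart, Irx4 marks ventricular myocardium, where it favours ventricular over atrial gene expression. Irx1 and Irx2 are known from the myocardium of the ventricular septum, Irx3 from the trabeculae and the ventricular conduction system, where it is needed for fast conduction, and Irx5 from the endocardium and from the control of ventricular repolarisation. The comparison of the groups shows how these genes stood in cells labelled as conduction system against cells labelled as chamber muscle.

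What each probe reads is shown by the first 30 bases of its sequence, with runs of at least 5 equal bases in capitals. The 7 sequences belong to the 4 members on which the results turn, and positions are given as the files have them, on build mm9 of the mouse genome.
Irx1, brighter probe A_52_P1092823 (chr13:72095735-72095794, minus strand): ctttgtttcTTTTTTcccctttctgtatat
Irx1, dimmer probe A_51_P149868 (chr13:72097289-72097348, minus strand): aggagatcgacctggagagcattgacatcg
Irx2, brightest probe A_52_P398122 (chr13:72770897-72770956, plus strand): tatgagaacttgttgtcatagtatagcttc
Irx2, second probe A_51_P320281 (chr13:72770078-72770739, plus strand): tacctataggagggccaaggtcagcagtgc
Irx2, dimmest probe A_52_P635312 (chr13:72768784-72768843, plus strand): cggggatgccttgtgcgaatcaggctcaga
Irx4, probe A_51_P412508 (chr13:73406712-73406771, plus strand): aagatgagaagaccggagagcacagccgat
Irx3, probe A_51_P518757 (chr8:94322759-94322818, minus strand): tttcaaccaTTTTTaaatcgttgtactaat
All 9 probes were 60 bases long. The second Irx2 probe spanned 662 bases of the genome, so its 2 ends lie apart there. Probes of different members shared no run longer than 9 bases. Whether a probe can bind the transcript of another member was not tested. GC content ran from 25% in the Irx3 probe to 55% in the dimmer Irx1 probe and the dimmest Irx2 probe.

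Between 36.3% and 50.7% of the spots of an array were well above background, and the lowest share was that of GFP-high replicate 3. Kcne1, the reporter's own gene, separated the groups on both of its probes, with GFP-high above. The sort was on the fluorescent protein and not on Kcne1 RNA. On 1 probe the gap was small, with a lowest GFP-high log2 value of 0.83 and a highest GFP-low value of 0.70. All 10 cardiomyocyte markers, such as Tnnt2 and Actc1, were above background on all arrays of both groups. Of 13 genes listed for the sinus node and atrioventricular canal, Shox2 was not above background on any array. Values below are log2 of the processed signal minus the 75th percentile of the array, so a value of 0 is a spot at that percentile, and differences are GFP-high minus GFP-low. Levels were not compared between probes, whose brightness depends on their own sequence. The median difference of the 12875 tested genes was 0.16, and a difference near that value is that of the median gene.

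By the brightest probe of each gene, Irx1, known from the septal myocardium, had the largest difference of the family among tested members. This order depends on the probe rule. The mean over the probes of a gene gave 1.63 for Irx1 and 1.54 for Irx2, and the second Irx2 probe alone had 1.74. On the brighter Irx1 probe the GFP-high arrays read 5.67, 5.55, 4.43 and 5.40 in replicates 1 to 4. The GFP-low arrays read 4.07, 3.45, 2.85 and 3.77. Every GFP-high array was above every GFP-low array, and the lowest value of GFP-high was that of replicate 3. The means were 5.26 ± 0.57 in GFP-high and 3.54 ± 0.53 in GFP-low (SD, n = 4 each). The log2 difference was 1.73 ± 0.38 (SE, 95% interval 0.86 to 2.59), which is 3.31-fold, and limma gave an unadjusted p of 0.00156 and an adjusted p of 0.157 over all tested genes. It did not pass the threshold of 0.05. It ranked 217 by size of the difference, from the highest, among the 12875 genes.

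The dimmer Irx1 probe read -1.53, -1.46, -3.52 and -1.49 in GFP-high and -3.31, -3.19, -4.07 and -3.57 in GFP-low. It was well above background on 3 GFP-high arrays and on 1 GFP-low array, and GFP-high replicate 3 lay among the GFP-low arrays. Its difference was 1.54 on the log2 scale (adjusted p = 0.265 in the limma fit over all probes). This size rests on signals near background: with all values raised to a common floor the difference was 0.15, and with normexp background correction it was 0.54.

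Irx2, the neighbour of Irx1 on chromosome 13, had positive differences on all 3 of its probes. The brightest probe read 0.47, 1.11, 0.38 and 1.54 in GFP-high and -0.84, 0.80, -1.09 and -0.15 in GFP-low. GFP-low replicate 2 was above 2 of the GFP-high arrays, so the groups overlapped. The log2 difference was 1.20 ± 0.47 (SE, 95% interval 0.14 to 2.26), or 2.29-fold, with a limma unadjusted p of 0.0313 and an adjusted p of 0.313.

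The second Irx2 probe was also above background on every array. It read -0.04, 0.59, 0.62 and 0.40 in GFP-high and -1.33, 0.07, -2.44 and -1.69 in GFP-low. The overlap was a single pair, in which GFP-low replicate 2 was above GFP-high replicate 1. The difference of this probe was 1.74 (3.34-fold, adjusted p = 0.235 in the limma fit over all probes). For the dimmest probe, the GFP-high arrays had a mean of -1.55 ± 0.57 (SD, n = 4), with a lowest value of -2.20. The GFP-low arrays ran from -4.41 to -2.61, with a mean of -3.22 ± 0.85 (SD, n = 4). Its groups did not overlap, with a difference of 1.67 (adjusted p = 0.231 in the same fit), but only 3 arrays of GFP-high and 2 of GFP-low cleared the background, and with the common floor its difference was 0.31 and with normexp 0.53. The mean over the 3 probes gave Irx2 a difference of 1.54 (limma adjusted p = 0.183).

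**Figure D1:**
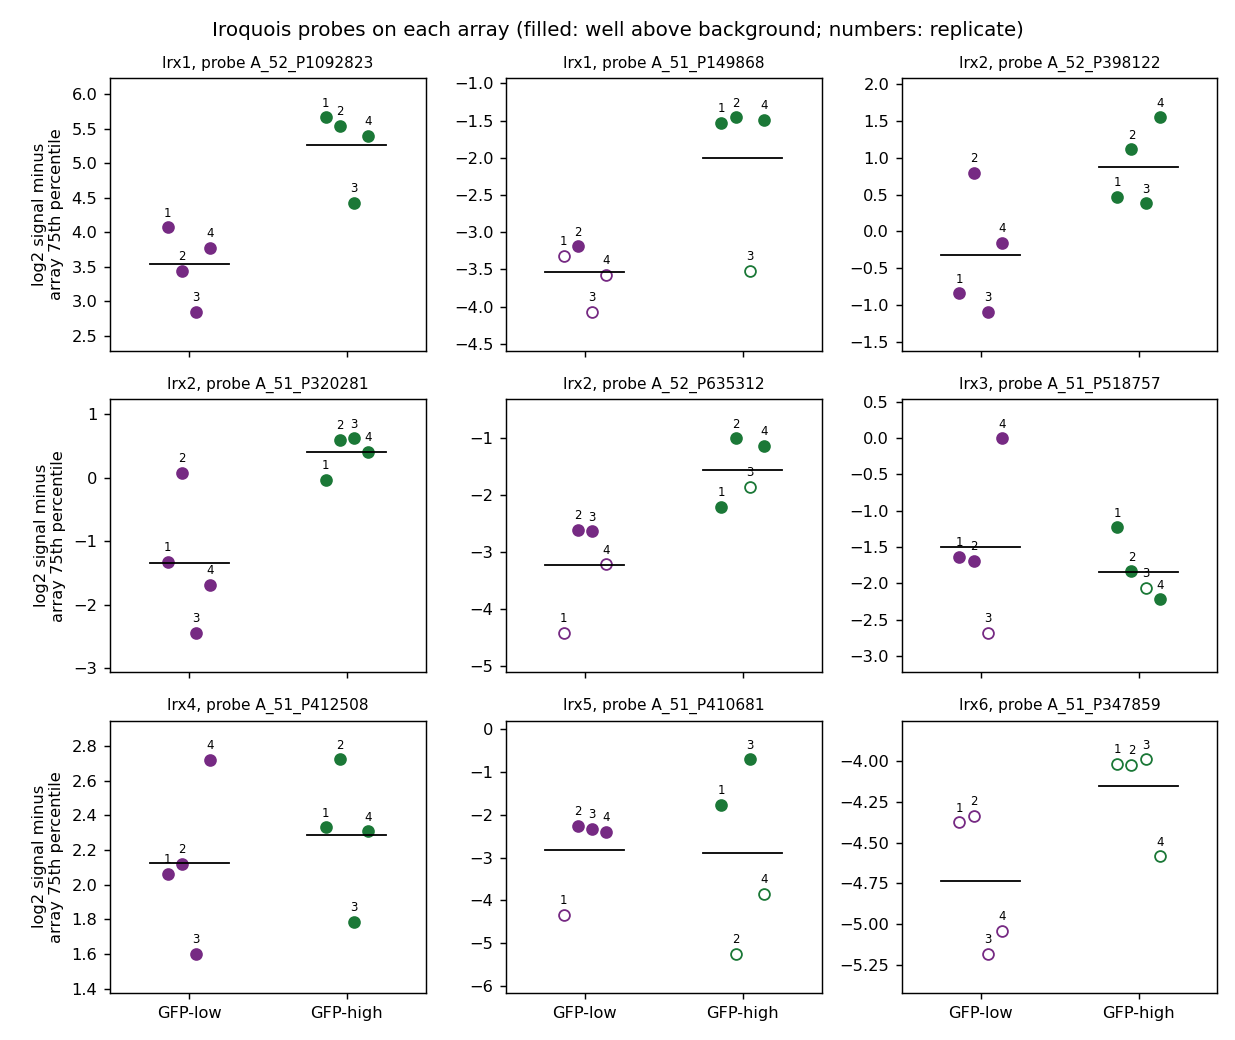
Log2 signal relative to the array's 75th percentile (y axis, a separate scale in each panel) for the 9 Iroquois probes in the 4 GFP-low and 4 GFP-high arrays; each point is 1 array with its replicate number, filled where the spot was well above background, and the line is the group mean. The 5 probes of Irx1 and Irx2 have higher means in GFP-high, with differences from 1.20 to 1.74, while the groups of Irx3, Irx4 and Irx5 overlap and Irx6 has open points only.

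Irx4, the ventricular member, lies in the same cluster and was measured above background on every array. It read 2.33, 2.72, 1.78 and 2.31 in GFP-high and 2.06, 2.12, 1.60 and 2.72 in GFP-low. The groups overlapped almost fully, and replicate 3 was the lowest array of each group. The means were 2.29 ± 0.39 and 2.13 ± 0.46 (SD, n = 4 each), a difference of 0.16 ± 0.32 (SE, limma adjusted p = 0.827). This equals the median difference of all tested genes, and the 95% interval from -0.57 to 0.89 allows a change of either sign. Without GFP-low replicate 3 the difference was -0.02, and within slide 2 it was -0.11.

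Irx3, the member tied to the ventricular conduction system, was near background. It read -1.23, -1.83, -2.07 and -2.22 in GFP-high and -1.63, -1.69, -2.68 and 0.00 in GFP-low, and it was above background on 3 arrays of each group. The highest array was GFP-low replicate 4, the lowest was GFP-low replicate 3, and the groups overlapped. The difference was -0.34 ± 0.54 (SE, limma adjusted p = 0.780, 95% interval -1.56 to 0.89). Without GFP-low replicate 4 it was 0.16, and with normexp it was 0.10, so the data gave no direction for Irx3.

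Irx3 and Irx4 were also set against each other on each array, to ask whether their change between the groups differed. Irx3 minus Irx4 averaged -4.12 ± 0.50 in GFP-high and -3.63 ± 0.65 in GFP-low (SD, n = 4 each). The difference between the groups was -0.50 (exact two-sided permutation test over 70 assignments, p = 0.257, where 0.0286 is the smallest possible). With normexp it was 0.08 (exact permutation p = 0.800). A change of Irx3 relative to Irx4 was therefore not detectable with these arrays.

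The same subtraction for Irx1 and Irx4, which was chosen after the values were seen and is given with no test, uses genes above background on all 8 arrays, and scaling an array by 1 constant does not change it. Irx1 minus Irx4 was 3.34, 2.83, 2.64 and 3.09 in GFP-high and 2.01, 1.33, 1.25 and 1.05 in GFP-low. All GFP-high arrays lay above all GFP-low arrays, with means of 2.98 ± 0.30 and 1.41 ± 0.42 (SD, n = 4 each). The Irx1 values were already separated and Irx4 differed little between the groups. This separation therefore largely follows from the choice of genes and is no further evidence. The shift between the groups was 1.57, and with quantile normalisation or normexp, which rescale probes unequally, it was 1.49. GFP-high replicate 3, which had the lowest Irx1 value of its group, had a low Irx4 value too.

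**Figure D2:**
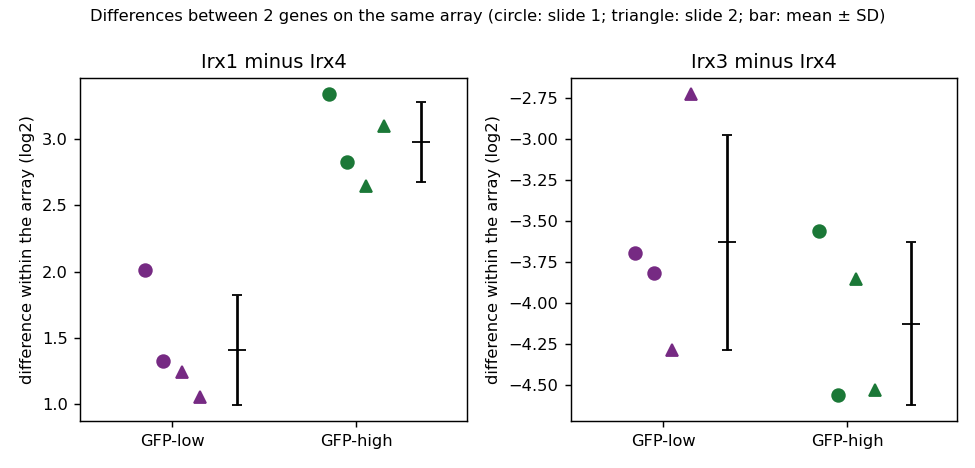
Log2 difference between 2 genes on the same array (y axis) in GFP-low and GFP-high, for Irx1 minus Irx4 and for Irx3 minus Irx4; points are arrays, circles from slide 1 and triangles from slide 2, and bars show the mean ± SD of 4 arrays. Only the shift between groups has a meaning, not the size on the axis: Irx1 minus Irx4 separates the groups (2.64 to 3.34 against 1.05 to 2.01), and Irx3 minus Irx4 does not. The Irx1 values were separated on their own, so the separation of Irx1 minus Irx4 adds no evidence.

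Irx5, a repolarisation and endocardial member, cleared the background on 2 arrays of GFP-high and 3 of GFP-low. It read -1.76, -5.25, -0.70 and -3.85 in GFP-high and -4.35, -2.25, -2.32 and -2.39 in GFP-low. The GFP-high arrays held both the highest and the lowest value, and the difference was -0.07 ± 0.98 (SE, limma adjusted p = 0.981). Its sign changed in 9 of 19 alternatives, so no direction was given by these data. Irx6 read from -4.59 to -3.99 in GFP-high and from -5.18 to -4.33 in GFP-low, all not well above background, and no difference is drawn from it.

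No Iroquois gene passed the limma test, 0 of 5, where 0.14% of all tested genes passed, 0.0699% in each direction. At an unadjusted p under 0.05 there were 2 members, Irx1 and Irx2, both higher in GFP-high, where 7.94% of all tested genes were higher and 6.38% lower at that level. The arrays of the groups were separated for the brightest probe of Irx1 alone, higher in GFP-high, against a background of 5.86% of tested genes. Among the 8 member probes in the fit over all probes, 2 were separated with GFP-high above, against 5.17% of all probes, and none passed the adjusted threshold, against 0.0379%. Each slide held 4 arrays, replicates 1 and 2 of each group on slide 1 and the remaining ones on slide 2. The difference of Irx1 was 1.85 within slide 1 and 1.60 within slide 2, and that of Irx2 was 0.81 and 1.58. Irx1 kept a positive difference in all 20 alternatives, from 1.50 to 2.00, and did not pass in any of them (adjusted p from 0.0724 to 0.812). Irx2 had positive differences from 0.81 to 1.58 in all 20 and did not pass in any either (0.183 to 0.842). The common floor, the series value table, the changed filters and the blocks returned the main difference of both genes unchanged. Those settings could alter the p-value but could not bear on the sign. In a mixed cell sample, more cells that express a gene and more RNA of it per cell cannot be told apart.

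**Figure D3:**
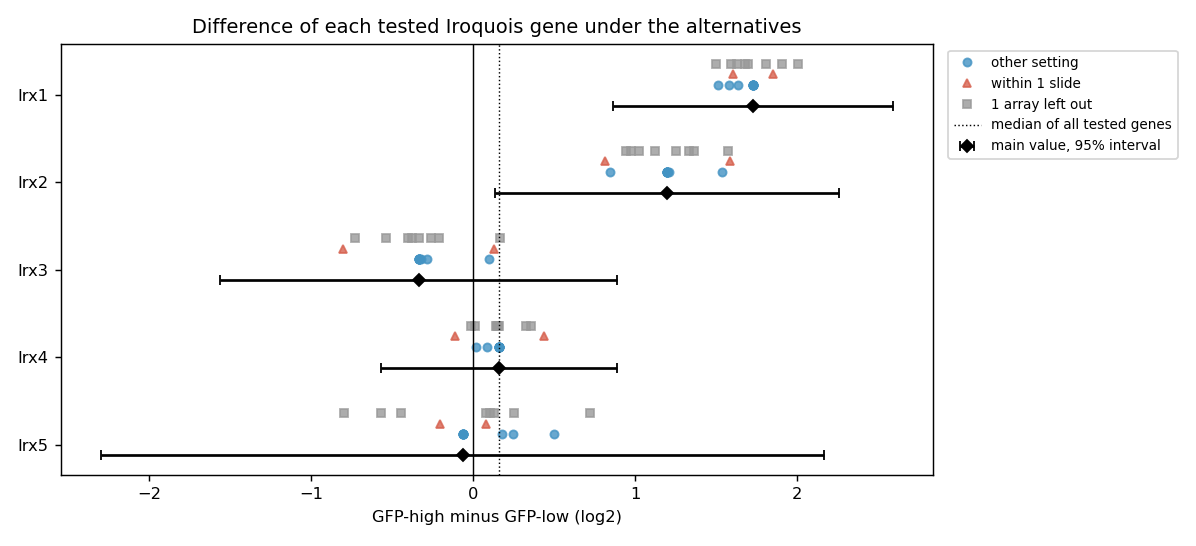
GFP-high minus GFP-low on the log2 scale (x axis) for the 5 tested Iroquois genes; black diamonds are the main values with their 95% intervals, blue circles other settings, red triangles values within 1 slide and grey squares values with 1 array left out, and the dotted line is the median of all tested genes. Irx1 and Irx2 lie to the right of 0 throughout, Irx4 lies around the median gene, and Irx3 and Irx5 have values on both sides of 0.

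The genes whose values over the 8 arrays were most like those of each member were found by Pearson's r among 9015 other genes above background on all arrays. For Irx1 these were Blcap (0.986), Ube2s (0.985), Arl4c (0.984), Ssbp2 (0.980) and Tbx2 (0.979). All 5 had separated arrays with GFP-high above, where 5.86% of all tested genes had this. They were picked for likeness to Irx1, whose own arrays were separated, so their separation follows from the choice and is no evidence. Their differences ran from 0.44 to 0.81, smaller than that of Irx1. For Irx2 they were Trappc1 (0.968), Ndufb6, Tas1r3, EG245651 and Gm5617 (each 0.965 to 0.967), and for Irx4 they were Jmjd6 (0.988), Atox1, Cct7, Emc6 and Abhd11 (0.966). Irx1 and Irx2 had an r of 0.70 with each other, which put Irx2 at rank 1736 among the genes for likeness to Irx1, and Irx1 and Irx4 had 0.54. These correlations describe 8 arrays that share group, slide and scaling, and carry no test.

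Among regulators and partners of Iroquois genes, 9 of 10 listed genes were tested, none passed the limma test over all genes, and the median difference was -0.01. Nkx2-5, a cardiac homeobox factor on which Irx4 expression depends, had a difference of 0.71 ± 0.33 (SE). Hand1, a ventricular factor, had -1.33 ± 0.28 (limma adjusted p = 0.145), and its arrays were separated with GFP-high below. Tbx5, a T-box factor of conduction and atrial development, had -1.07 ± 0.36 (0.265) and was separated in the same direction. Gata4, a zinc finger factor, had 0.97 ± 0.27 (0.218) and was separated with GFP-high above, as was Rxra at 0.65 ± 0.23 (0.278). Separation with GFP-high above was seen in 5.86% of all tested genes, and with GFP-high below in 3.08%. Vdr was not above background on any array.

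Of the genes linked to Iroquois activity in heart, all 9 were tested, none passed, and the median was -0.22. The connexin gene Gja1, which Irx3 represses in the ventricular conduction system, had -1.53 ± 0.42 (SE, limma adjusted p = 0.202). Gja5, the fast-conducting connexin gene that Irx3 favours there, had -0.22 ± 0.38. Bmp10, a trabecular growth factor gene, had -0.36 ± 0.48. Kcnd2, a potassium channel gene repressed by Irx5, had -0.28 ± 1.01 and was above background on 2 arrays of each group. The natriuretic peptide gene Nppa had -0.89 ± 0.22 (0.186), and the myosin gene Myh7 had 0.24 ± 0.34.

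Other TALE homeobox genes did not share a sign. Of 12 listed, 9 were tested, 5 of them had positive values, none passed, and the median was 0.05. The smallest p-values belonged to Pbx2 (0.67 ± 0.23, SE, limma adjusted p = 0.271) and Tgif2 (0.81 ± 0.33, 0.321). The genes next to the clusters, 3 protein-coding genes on each side, gave no call. Beside the chromosome 13 cluster 4 of 6 were tested with a median of 0.27, and the highest value was 0.48 ± 0.26 (SE) in Mrpl36, a mitochondrial ribosomal gene; Ndufs6, a respiratory chain gene, had 0.45, Lpcat1 0.10 and Adamts16 -0.16, while Ice1 and Gm47655 had no probe under these names. Beside the chromosome 8 cluster 3 of 6 were tested with a median of 0.42. Fto, the neighbour of Irx3, had 0.42 ± 0.22 (SE) with arrays separated, GFP-high above (5.86% of all tested genes). Rpgrip1l had 0.65 ± 0.93 and Aktip had 0.07 ± 0.28. Mmp2 was above background on 2 GFP-low arrays only, and Capns2 and Lpcat2 on none.

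Regional and cell type markers stood beside the family as follows. The ventricular list, which does not hold Irx4, had 13 of 13 tested, none passed and a median of 0.16, the same as Irx4 to 2 decimals. Cited1 (-1.61 ± 0.25, SE, limma adjusted p = 0.0724) and Hand1 had the smallest p-values of that list, and both were lower in GFP-high. Of the 13 genes 8 had positive values. Arrays were separated with GFP-high above for 1 gene, Lbh at 0.68 ± 0.26 (SE, 5.86% of all tested genes). They were separated with GFP-high below for 2, Cited1 and Hand1 (3.08% of all). The atrial list had 11 of 11 tested, none passed and a median of 0.08. Its groups did not overlap for 1 gene higher in GFP-high, Sln at 2.10 (5.86% of all tested genes), and for 4 genes lower (3.08% of all), Nr2f1 at -2.00, Nr2f2 at -1.63, Tbx5 at -1.07 and Nppa at -0.89. The sinus node and atrioventricular canal list had 12 of 13 tested, 1 higher (Cacna2d2, a calcium channel subunit gene, 1.87 ± 0.25, SE, limma adjusted p = 0.0465), none lower and a median of 1.05, where 0.0699% of all tested genes were called higher. Cacna2d2 lost this call in 15 of 20 alternatives, including each of the 8 that left out 1 array (adjusted p from 0.0297 to 0.635 over the 20, difference from 1.56 to 1.99). Of the 12 tested genes 10 had positive values, and 5 had separated arrays with GFP-high above (5.86% of all tested genes) and none with GFP-high below. The largest differences were those of Bmp2 (2.82 ± 1.12, SE), Msx2 (2.79 ± 0.89) and Rspo3 (2.61 ± 0.42). Bmp2 was above background on 2 GFP-low arrays, and Msx2 and Rspo3 on 3 each. The list was not of 1 direction: the pacemaker channel gene Hcn4 had -0.65 and Isl1 -0.38. Gjc1 (0.05), Gjd3 (0.10) and Cacna1g (0.29) were close to 0. The summed signal of that list, in units of the 75th percentile, was 75.4 to 88.7 in GFP-high and 40.6 to 54.4 in GFP-low. Cacna2d2 and Id2 (1.50 ± 0.22, SE, limma adjusted p = 0.0654) made up much of that gap, with a joint sum that averaged 38.8 against 12.1. Without them, a choice made after the values were seen, the sums overlapped, at 37.7 to 52.0 and 27.9 to 41.4. Such a sum follows its brightest probes, and the dimmer Bmp2, Msx2 and Rspo3 added little to it. The overlap therefore does not show that the rest of the list was unchanged. The part of these cells in the Irx1 values was not tested. The list was drawn up with earlier results of these arrays known and is no independent evidence.

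**Figure D4:**
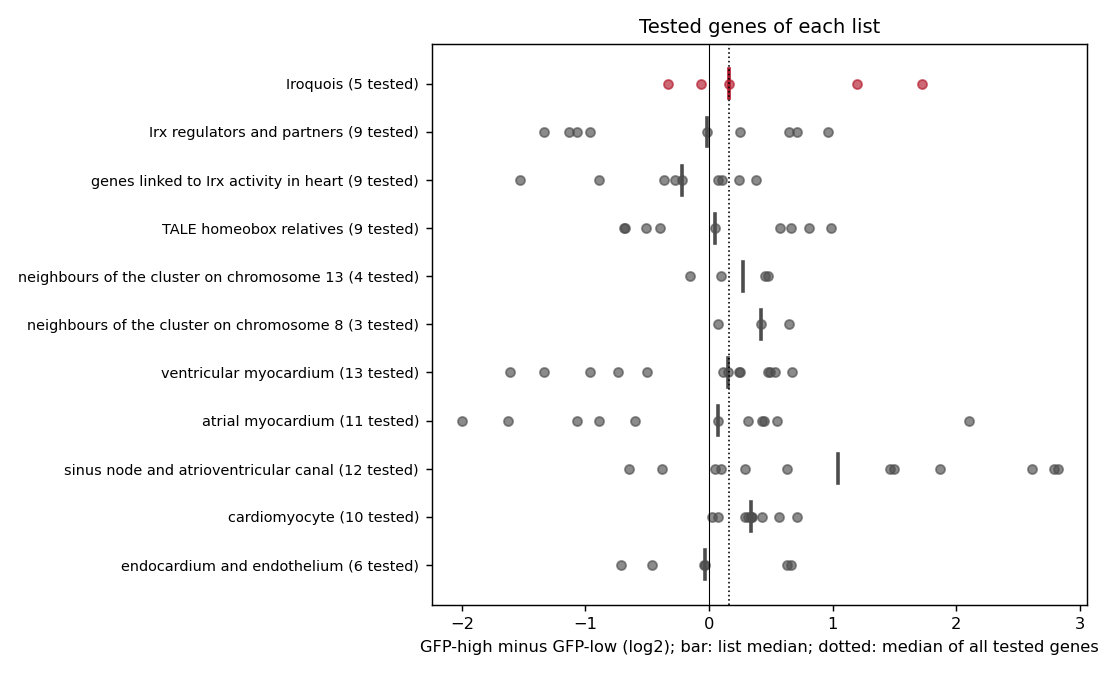
GFP-high minus GFP-low on the log2 scale (x axis) for the tested genes of each list, 1 point per gene, with a bar at the list median and a dotted line at the median of all tested genes. Irx1 (1.73) and Irx2 (1.20) are the right-most red points, the ventricular list has its median at 0.16, and the sinus node and atrioventricular canal list has its median at 1.05.

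Markers of other cells in which Iroquois genes are known were compared in the same way. Of 13 endocardial and endothelial genes 6 were tested and none passed. Pecam1, Tek and Eng were not above background on any array, while Egfl7, Esam, Nfatc1 and Ramp2 were on every array. Egfl7 had 0.64 ± 0.29 (SE, limma adjusted p = 0.357) with arrays separated, GFP-high above (5.86% of all tested genes). Esam had 0.66 ± 0.29, Nfatc1 -0.46 ± 0.49 and Ramp2 -0.72 ± 0.39, and their groups overlapped. The summed signal of the list was 4.99 to 7.97 in GFP-high and 4.15 to 8.85 in GFP-low. For foregut and lung endoderm 5 of 6 markers were not above background on any array and Epcam only on 1, in GFP-low. Of 7 neuron and neural crest markers 1 was tested, Tubb3 at -0.89 ± 0.93 (SE), Elavl4 and Stmn2 were not above background on any array, and the sum was 0.728 to 3.52 against 1.08 to 3.51. Of 7 epicardial genes 5 were tested with a median of 0.44, all 5 had positive values and none passed. Krt19 (0.44 ± 0.38, SE) and Tbx18 (0.51 ± 0.23) were above background on every array with overlapping groups. Upk1b and Upk3b were not above background on any array. The summed signal of the list was 8.04 to 9.36 in GFP-high and 5.42 to 8.37 in GFP-low. The part of epicardial cells in the Irx1 values was not tested. The 9 cushion mesenchyme genes had 4 tested, none passed, a median of -0.83 and sums of 2.18 to 5.42 against 2.83 to 12.2. The erythroid genes had 5 of 6 tested, none passed, a median of -0.03 and sums of 25.6 to 185 against 12.7 to 172. The 10 cardiomyocyte genes had a median of 0.34, and none passed.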

How the data were processed

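Each of 8 samples was hybridised to 1 array with 1 dye. The deposited values are spot intensities on a linear scale, background-subtracted and detrended within the array by the authors with Agilent Feature Extraction 10.5.1.1, per the file headers and the submitters' processing notes. The value table of the whole series held the same intensities. Here log2 of the processed signal less the 75th percentile of the 43379 non-control spots of that array was used, without outlier spots, in R 4.3.3 with limma 3.58.1. Spots of a probe were averaged, and the probe with the highest mean stood for its gene name; 33070 probes got a current symbol from the reference table of GRCm38.p6, used for names and neighbours only. Genes well above background on at least 4 arrays (12875) were fitted with lmFit and eBayes on group alone, at a Benjamini-Hochberg adjusted p under 0.05; the fit was tested on simulated data. Alternatives changed the background correction, scaling, floor, probe rule, filter, blocks and arrays. Named genes were the members, fixed list genes with a role beside Irx or with the smallest p, cluster neighbours, and the 5 genes most like each member; some listed genes are not reported here by name. Members and lists were chosen with earlier results of these data known. The p-values measure the spread between these samples. No spot was saturated, and the number of arrays limits the precision.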

Additional observations from a re-analysis of the deposited data

Results flagged for a closer look

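Of 20 sets of 4 arrays checked, 3 held an array that stood far from the other 3 by Dixon's criterion, which chance meets in about 1 of 20. On the dimmer Irx1 probe GFP-high replicate 3 read -3.52, against -1.53 to -1.46 on the other GFP-high arrays; it was not well above background there, and this array had the lowest share of spots above background (36.3%). On the Irx5 probe GFP-low replicate 1 read -4.35, against -2.39 to -2.25 on the other GFP-low arrays. On the Irx6 probe, which no array measured above background, GFP-high replicate 4 read -4.59, against -4.02 to -3.99.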

How the results depend on the processing

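No alternative brought an Iroquois gene past the threshold. Over all genes 18 passed (9 higher, 9 lower). The count was 0 with array median scaling, 9 with quantile normalisation, 42 with the common floor, 3 with no filter on dim probes, 11 with genes above background on all 8 arrays, 11 with the slide as a block, 0 within slide 1, 0 within slide 2, and from 0 to 7 with 1 array left out. Signs reversed where signals were near background or differences small. Irx5, at -0.07, had 0.18 with quantile normalisation, 0.50 with normexp, 0.25 with the common floor, 0.077 within slide 2 and from -0.79 to 0.72 with 1 array left out (reversed at 0.72, 0.26, 0.13, 0.10 and 0.08). Irx3 had 0.10 with normexp, 0.13 within slide 1 and 0.16 without GFP-low replicate 4 (from -0.73 to 0.16 over the left-out arrays). Irx4 had -0.11 within slide 2 and -0.015 without GFP-low replicate 3 (to 0.36 over the left-out arrays). Irx3 minus Irx4 had 0.083 with normexp and from -0.71 to -0.19 with 1 array left out. The median difference of all genes lay between 0.09 and 0.16 over the scalings, background correction and common floor.

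A replicate block gave 0 genes past the threshold in limma. Deviations of same-numbered arrays correlated at 0.114, 0.153, 0.303 and 0.0647. Every GFP-high array correlated best with the GFP-low array of its own number. GFP-low replicate 4 correlated best with another number, GFP-high replicate 1 (0.0779). Not every pair was above 0.1, and the numbers were not taken to pair the samples, though a pairing is not excluded. In that block Irx1 had an SE of 0.21, against 0.38 without it, and a limma adjusted p of 0.148, and Irx2 had an adjusted p of 0.196.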
